A study of Mus musculus with 24 samples.

Results

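The 9 genes described here encode transcription factors and regulators that carry interferon and interleukin-6 signals, namely Stat2, Irf9, Irf7, Irf1, Irf8, Jak2, Stat3, Socs3 and Socs1. They were taken by name, with earlier results of these data known, from 56783 Ensembl gene identifiers counted in mouse brain cells. Microglia came from whole brain and astrocytes from cerebral cortex of adult mice, and both were purified by immunopanning, in which cells bind to dishes coated with antibodies. The 24 RNA sequencing libraries formed 8 groups of 3, with 12 libraries per cell type. In each cell type the groups were Serpine2-/- knockouts given LPS, littermate controls given LPS, knockouts given saline and controls given saline. LPS, or lipopolysaccharide, is a building block of the outer membrane of Gram-negative bacteria and a strong trigger of innate immunity. Controls kept 1 or more working Serpine2 alleles, so the group can hold heterozygous mice. The labels used here gave no LPS dose or time, and did not say whether replicates were single animals. P-values therefore measure the spread between these libraries.

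Interferons and cytokines of the interleukin-6 family bind receptors that carry Janus kinases such as Jak2. The kinases phosphorylate STAT proteins, which enter the nucleus and switch on target genes. Stat2 and Irf9 are parts of the complex through which type I interferon acts on the interferon-stimulated response element, whereas interleukin-6 works mainly through Stat3. Irf7 amplifies interferon production, Irf1 drives much of the response to interferon gamma, and Irf8 is a lineage factor of microglia and other myeloid cells. Socs1 and Socs3 are feedback inhibitors that STATs induce, Socs1 acting mostly on interferon receptors and Socs3 on the interleukin-6 receptor chain gp130.

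Short stretches upstream of the start site are shown for the 5 of these genes that held a match to either of the pathway's binding motifs. RefSeq promoter windows on GRCm38.p6 were found for all 9 genes, 12 windows in all, and the 250 bases before each start were searched on both strands. The core of the interferon response element, a GAAA repeat with 2 bases between its copies, occurred upstream of Stat2 and Socs1, 2 of 9 genes, against 3.46% of 27025 genes. The STAT site TTCNNNGAA, which reads the same on both strands, occurred upstream of Irf1, Irf8 and Socs3, 3 of 9 against 8.13%. The NF-kappa B motif, searched as GGG, any 2 bases, T, any 2 bases and CC, occurred upstream of Irf1 and Irf8, 2 of 9 against 17.9%. Capitals mark the matches, which are descriptions of these letters and not sites shown to be bound. The stretches lie at chr10:128270256-128270305 (plus strand, Stat2), chr16:10785584-10785639 (minus strand, Socs1), chr11:53769904-53770013 (plus strand, Irf1), chr8:120736108-120736233 (plus strand, Irf8) and chr11:117969492-117969540 (minus strand, Socs3). None of them overlaps an annotated GENCODE exon. The 2 matches of Socs1 overlap each other.
Stat2: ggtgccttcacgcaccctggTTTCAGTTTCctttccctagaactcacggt
Socs1: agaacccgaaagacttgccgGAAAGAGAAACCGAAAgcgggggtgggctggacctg
Irf1: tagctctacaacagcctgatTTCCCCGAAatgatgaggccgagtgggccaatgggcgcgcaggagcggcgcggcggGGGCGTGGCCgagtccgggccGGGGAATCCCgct
Irf8: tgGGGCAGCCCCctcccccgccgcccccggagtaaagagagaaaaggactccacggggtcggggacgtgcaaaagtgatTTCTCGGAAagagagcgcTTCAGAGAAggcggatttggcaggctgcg
Socs3: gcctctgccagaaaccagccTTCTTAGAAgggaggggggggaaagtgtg

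Reads counted on genes numbered 4506142 to 13621776 in a microglia library and 10944765 to 25135252 in an astrocyte library. Reads that the counting step assigned to no annotated feature made up 64.6% to 77.0% of those counted in microglia and 20.5% to 26.9% in astrocytes. Where these reads lay was not examined. Serpine2 levels in knockouts were all below those of controls of the same cell type and injection, and transcripts of the sex chromosomes matched the labelled sex in 23 libraries, but not in the microglia library labelled LPS control 1. Of the 12 microglia markers searched none was at 0 in any group. Their summed level was 1104 to 1762 CPM, counts scaled to library size, in microglia of LPS knockouts, 1193 to 2469 in LPS controls, 1251 to 3108 in saline knockouts and 1364 to 3191 in saline controls. The 10 astrocyte markers summed to between 32160 and 46520 CPM in astrocyte libraries and between 309.7 and 395.6 CPM in microglia libraries. Neuron markers summed to between 1389 and 2501 CPM in microglia libraries, so these were not pure preparations. In some of them the neuron sum was above the microglia sum, as in LPS knockout 1 (1606 against 1104 CPM). Oligodendrocyte markers summed to between 677.9 and 2123 CPM in microglia libraries. CPM here are scaled over all 24 libraries together, unless stated otherwise.

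**Figure D1:**
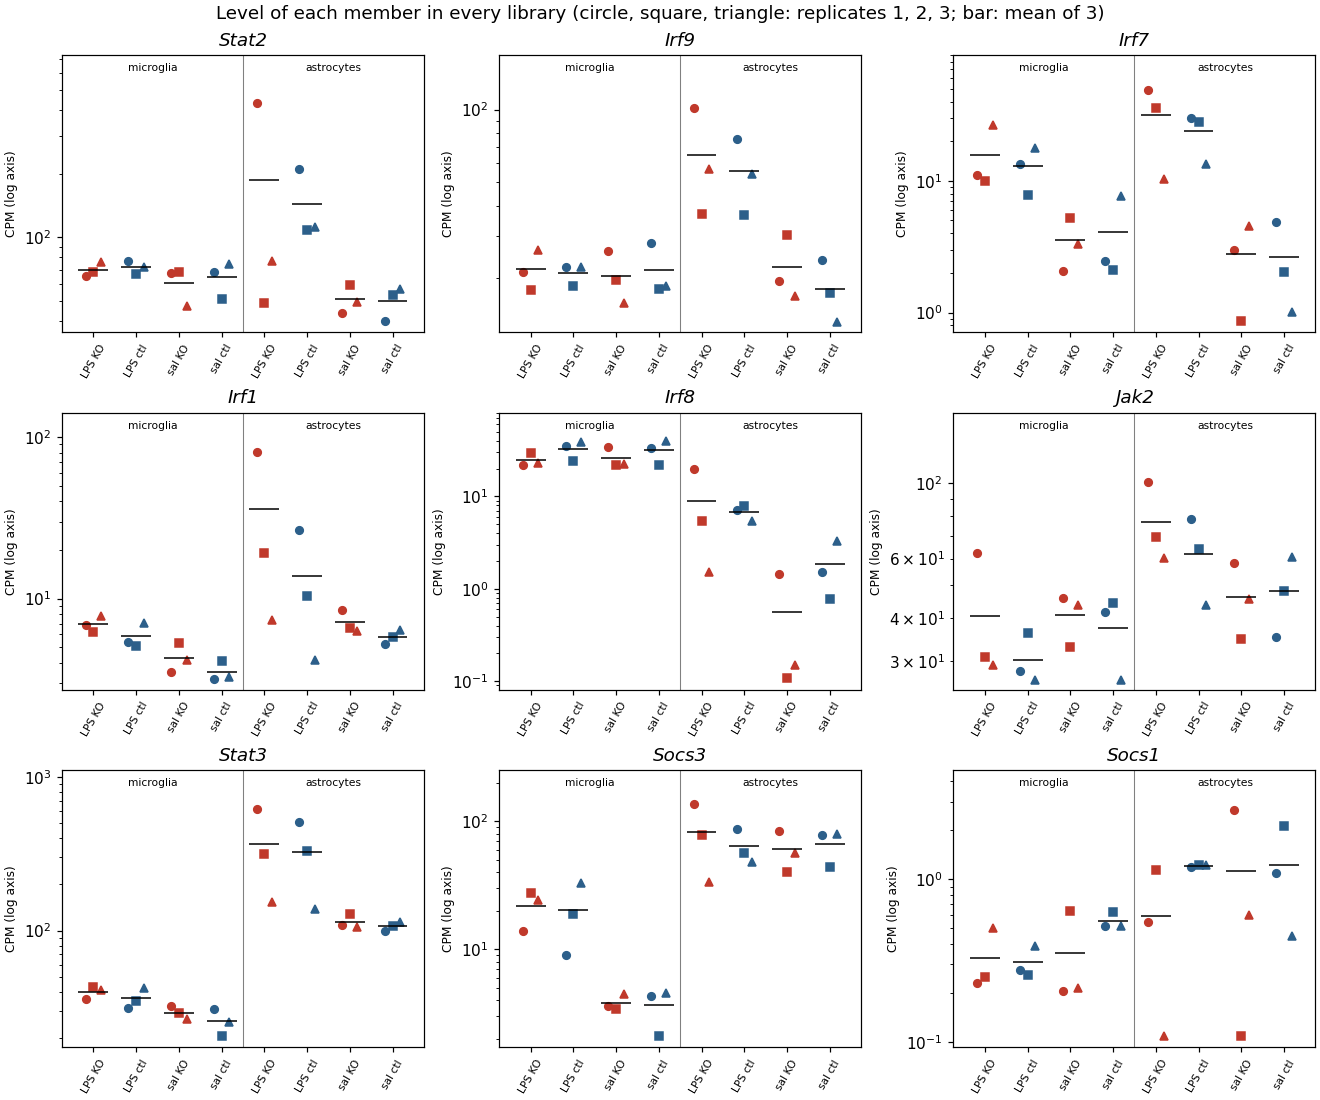
Level of each of the 9 genes in every library, in CPM on a log axis, with a panel per gene. Each column is a group (LPS knockout, LPS control, saline knockout, saline control; microglia left, astrocytes right), each point a library and each bar the mean of 3. Socs3 and, narrowly, Irf7 stand apart between LPS and saline in microglia, and Irf7, Irf9 and Stat3 do so in astrocytes. The share of all genes that stand apart in this way was not computed.

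In microglia, LPS raised the feedback inhibitor Socs3 and the interferon amplifier Irf7, while the interferon factors Stat2 and Irf9, the lineage factor Irf8 and the kinase Jak2 were not called. These calls were 2 of the 8 genes that could be tested, against 2.19% of the 22230 genes tested that were called higher and 2.70% called in either direction. A call is an edgeR quasi-likelihood test, averaged over genotypes, whose p, adjusted by Benjamini-Hochberg across the genes tested, was under 0.05. Socs1 had 2 to 11 reads per microglia library and was too low to test.

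Socs3 stood at 14.0, 27.8 and 24.3 CPM in LPS knockout microglia and at 9.07, 19.0 and 33.0 CPM in LPS controls. Saline knockouts had 3.60, 3.40 and 4.44 CPM of Socs3, and saline controls 4.34, 2.11 and 4.53 CPM. Every LPS library lay above every saline library, in either genotype. The share of all genes whose libraries separate in this way was not computed, in this or the other cell type. The fold was 5.52 (log2 2.46, SE 0.31, edgeR adjusted p 0.000249). The rise was called in each genotype on its own, with a log2 fold change of 2.54 in knockouts (adjusted p 0.00825) and 2.39 in controls (adjusted p 0.015, edgeR). Leaving out saline knockout 2 ended the call in knockouts (adjusted p 0.0573), and leaving out saline control 2 (adjusted p 0.0527) or LPS control 3 (adjusted p 0.0632) ended that in controls, as did a fit of the control groups alone (adjusted p 0.0618). Socs3 was the 1 of 8 genes called there, where 1.14% of all genes were called in knockouts and 0.576% in controls.

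Irf7 stood at 11.1, 10.0 and 26.3 CPM in LPS knockout microglia and at 13.4, 7.82 and 17.8 CPM in LPS controls. Irf7 in saline knockouts was 2.06, 5.25 and 3.30 CPM, and in saline controls 2.48, 2.11 and 7.67 CPM. The groups did not overlap, but the lowest LPS library and the highest saline library, both controls, were close. The fold was 3.58 (log2 1.84, SE 0.37, edgeR adjusted p 0.0108), and the call was lost with labelled sex as a covariate (log2 1.62, adjusted p 0.0694). That covariate holds the library whose transcripts went against its label; without the library, and without the covariate, Irf7 stayed called (log2 1.87, adjusted p 0.0171). Within a genotype Irf7 was not called, at log2 2.15 in knockouts (adjusted p 0.0692) and 1.53 in controls (adjusted p 0.403, edgeR).

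Irf1, the factor of interferon gamma responses, missed the threshold narrowly in microglia. It ran from 5.10 to 7.82 CPM, with a median of 6.56, over 6 LPS libraries and from 3.20 to 5.30 CPM, with a median of 3.80, over 6 saline libraries. LPS over saline was 0.69 on the log2 scale (SE 0.18, edgeR adjusted p 0.0524), and DESeq2 called it. Leaving out the saline control 2 or the LPS knockout 1 library also led to a call. Stat3, the main factor downstream of interleukin-6, had a log2 fold change of 0.45 (95% interval 0.14 to 0.76, adjusted p 0.16), with 31.6 to 42.8 CPM in LPS and 20.7 to 32.2 CPM in saline libraries.

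The other 4 genes tested in microglia had log2 fold changes near 0. Irf8 was at −0.05 (95% interval −0.48 to 0.39) and Irf9 at 0.01 (−0.36 to 0.38). Stat2 was at 0.15 (−0.16 to 0.46) and Jak2 at −0.18 (−0.61 to 0.25). These intervals leave out a doubling or a halving, that is a log2 change of 1 or −1. Irf8 ran from 21.8 to 38.6 CPM in LPS and from 21.6 to 40.1 CPM in saline microglia, almost the same span. Microglia markers moved differently: 5 of 12 were called lower after LPS and the list's median log2 fold change was −0.70. Of the neutrophil markers 3 of 10 were called lower (median −0.63), and of the erythrocyte markers 3 of 4 tested (median −2.75). Whether cell purity took part in any of these values was not tested, and in these bulk samples fewer cells of a type and less RNA per cell cannot be told apart.

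In astrocytes, LPS raised 5 of the 9 genes, namely Irf7, Irf9, Stat3, Irf8 and Irf1, against 4.98% of the 18188 genes tested that were called higher and 6.90% called in either direction. Stat2 lay just beyond the threshold, and Jak2, Socs3 and Socs1 were not called. The 6 LPS libraries differed widely among themselves, the first of each genotype holding the highest values of Stat2, Irf9, Irf7, Irf1, Jak2, Stat3 and Socs3 within that genotype. In both genotypes the first and second LPS libraries were labelled male and the third female. A trait of the third LPS libraries thus cannot be told apart from sex. Markers of other cells differed in the same comparison. Of the endothelial and pericyte markers 6 of 8 were called higher (median log2 fold change 2.83), as were 5 of 10 neuron markers (median 0.86), and 3 of 8 oligodendrocyte markers were called lower (median −0.52). Neuron markers summed to between 211.5 and 392.1 CPM in LPS knockouts and between 212.9 and 409.1 CPM in LPS controls, against 129.9 to 192.5 CPM in saline knockouts and 159.1 to 182.1 CPM in saline controls. Endothelial and pericyte markers summed to between 221.6 and 314.8 CPM in LPS knockouts and between 206.6 and 246.6 CPM in LPS controls, against 188.8 to 258.1 CPM in saline knockouts and 193.5 to 223.0 CPM in saline controls. The mean log2 CPM of these markers was 3.54 to 4.75 in LPS knockouts and 2.74 to 4.12 in LPS controls. In saline it was 0.755 to 2.11 in knockouts and 1.12 to 1.72 in controls. By this mean all LPS libraries lay above all saline libraries. Oligodendrocyte markers summed to between 2068 and 3673 CPM in LPS knockouts and between 3036 and 3900 CPM in LPS controls, against 2115 to 3744 CPM in saline knockouts and 4449 to 5027 CPM in saline controls. No marker of these lists was at 0 throughout a group, and the part of such cells in the 5 calls was not tested.

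Irf7 stood at 49.2, 35.6 and 10.3 CPM in LPS knockout astrocytes and at 30.2, 27.9 and 13.4 CPM in LPS controls. Irf7 in saline knockouts was 2.99, 0.868 and 4.52 CPM, and in saline controls 4.88, 2.03 and 1.01 CPM. The groups did not overlap, and the third LPS library was the lowest in both genotypes. The fold was 10.2 (log2 3.35, SE 0.48, edgeR adjusted p 0.000529). Irf7 was also called in each genotype on its own, at log2 3.52 in knockouts (adjusted p 0.0173) and 3.18 in controls (adjusted p 0.033, edgeR). With 1 library left out at a time, the call held in 9 of 12 fits for knockouts (adjusted p up to 0.0978) and 6 of 12 for controls (up to 0.204). Within a genotype 2 of 9 genes were called, Irf7 and Irf9, where 1.56% of all genes were called in knockouts and 0.929% in controls.

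Irf9, the DNA-binding partner of Stat2, stood at 101.3, 37.1 and 56.5 CPM in LPS knockout astrocytes and at 75.2, 36.8 and 54.4 CPM in LPS controls. Saline knockouts had 19.6, 30.2 and 17.0 CPM of Irf9, and saline controls 23.9, 17.4 and 13.3 CPM. All LPS libraries lay above all saline libraries. The fold was 3.01 (log2 1.59, SE 0.26, edgeR adjusted p 0.0015), with calls in knockouts (adjusted p 0.043) and in controls (adjusted p 0.0482) that sat close to the threshold. These calls held in 5 of 12 fits for knockouts and 4 of 12 for controls when 1 library was left out.

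Stat3 stood at 620.0, 316.7 and 153.4 CPM in LPS knockout astrocytes and at 505.5, 330.1 and 137.6 CPM in LPS controls. Stat3 in saline knockouts was 109.6, 128.6 and 105.2 CPM, and in saline controls 99.4, 107.1 and 114.4 CPM. The saline libraries sat in a narrow band that every LPS library exceeded, although the third of each genotype did so by little. The fold was 3.13 (log2 1.65, SE 0.32, edgeR adjusted p 0.00618). Within a genotype Stat3 was not called, with an adjusted p of 0.0808 in knockouts and 0.12 in controls (edgeR).

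Irf8 stood at 19.9, 5.45 and 1.52 CPM in LPS knockout astrocytes and at 7.04, 7.78 and 5.4 CPM in LPS controls. Irf8 in saline knockouts was 1.44, 0.108 and 0.151 CPM, and in saline controls 1.52, 0.773 and 3.26 CPM. The groups overlapped, because the third LPS knockout library was below the third saline control library. The fold was 7.42 (log2 2.89, SE 0.67, edgeR adjusted p 0.0136), resting on 1 to 29 reads per saline library and 14 to 255 per LPS library.

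Since Irf8 is a factor of microglia, its level was set beside the microglia markers of the same astrocyte libraries. The 12 markers, none at 0 in any group, summed to between 314.7 and 1403 CPM in LPS knockouts and between 314.4 and 894.4 CPM in LPS controls. In saline they summed to between 291.0 and 336.9 CPM in knockouts and between 325.3 and 411.2 CPM in controls. Of the 12, 10 had a positive log2 fold change after LPS, with a median of 0.96, while 1 was called higher and 1 lower. The LPS knockout 1 library held the most Irf8 and a marker sum of 314.7 CPM, inside the saline range. Irf8 there equalled 6.33% of the marker sum, against 1.05% to 2.03% in the 12 microglia libraries. In the LPS knockout 2 library, which had the highest marker sum, Irf8 equalled 0.389% of it. The share was 0.235% in LPS knockout 3, and 2.24%, 0.895% and 0.604% in LPS controls 1, 2 and 3. In saline astrocytes it ran from 0.0342% to 0.427% in knockouts and from 0.203% to 1% in controls. Neutrophil markers summed to between 5.47 and 55.3 CPM in LPS knockout astrocytes and between 12.4 and 17.1 CPM in LPS controls, against at most 4.54 CPM in saline knockouts and 4.23 CPM in saline controls. Monocyte markers summed to 138.5 to 351.5 CPM in LPS knockouts, most in LPS knockout 1, and 111.3 to 257.7 CPM in LPS controls. In saline they summed to 72.4 to 110.9 CPM in knockouts and 124 to 134.2 CPM in controls. By mean log2 CPM all LPS libraries lay above all saline libraries, LPS knockout 1 being the lowest LPS knockout (0.432). The part of other cells in the Irf8 difference was not tested.

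**Figure D2:**
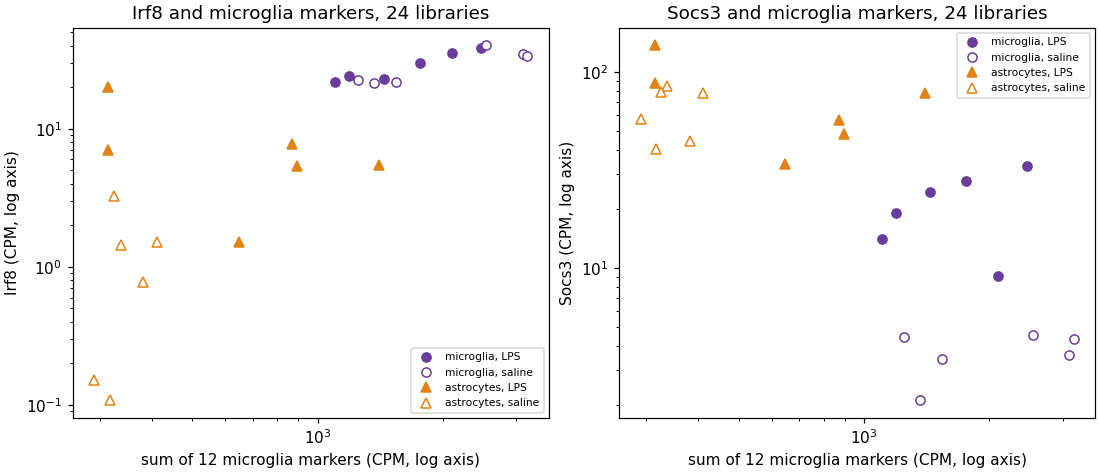
Irf8 (left) and Socs3 (right) in CPM against the summed level of 12 microglia markers in CPM, both on log axes, for all 24 libraries. Circles are microglia and triangles astrocytes, filled for LPS and open for saline. The astrocyte library with 19.9 CPM of Irf8 has a marker sum of 314.7 CPM, near those of the saline astrocytes. The other LPS astrocyte libraries have 1.52 to 7.78 CPM of Irf8 and marker sums of 314.4 to 1403 CPM.

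Irf1 stood at 80.4, 19.1 and 7.38 CPM in LPS knockout astrocytes and at 26.7, 10.4 and 4.18 CPM in LPS controls. Irf1 in saline knockouts was 8.53, 6.62 and 6.32 CPM, and in saline controls 5.21, 5.79 and 6.41 CPM. The third LPS control library was below all saline libraries, so the groups overlapped. The fold was 3.47 (log2 1.79, SE 0.51, edgeR adjusted p 0.0461). The call was lost on leaving out any 1 of 10 of the 12 libraries, all but the third LPS library of each genotype, with log2 fold changes of 1.08 to 2.04 over all 12.

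Stat2, the partner of Irf9 in the type I interferon complex, stood at 432.6, 48.6 and 77.1 CPM in LPS knockout astrocytes and at 209.5, 108.5 and 111.5 CPM in LPS controls. Stat2 in saline knockouts was 43.4, 59.3 and 48.9 CPM, and in saline controls 39.8, 53.1 and 56.7 CPM. The second LPS knockout library was within the saline range and the other 5 were above it. LPS over saline was 1.71 on the log2 scale (SE 0.47, edgeR adjusted p 0.0518). DESeq2 called Stat2 (adjusted p 0.0132), and so did the edgeR fit without LPS knockout 1, 2 or 3, the value without the first of them being 0.93.

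Jak2 ran from 43.7 to 100.4 CPM, with a median of 66.7, over 6 LPS astrocyte libraries and from 34.7 to 60.7 CPM, with a median of 46.9, over 6 saline libraries (log2 0.55, 95% interval 0.11 to 1.00, edgeR adjusted p 0.138). Socs3 was not called in astrocytes, at 136.4, 78.0 and 33.8 CPM in LPS knockouts and 87.5, 56.8 and 48.4 CPM in LPS controls. Socs3 in saline knockouts was 85.0, 40.6 and 57.2 CPM, and in saline controls 78.3, 44.1 and 79.3 CPM. LPS libraries lay on both sides of the saline range. Its log2 fold change was 0.19 (95% interval −0.43 to 0.82, adjusted p 0.786) and −0.22 without the first LPS library of both genotypes. Socs1 was scarce, at 0.108 to 1.22 CPM in LPS and 0.108 to 2.66 CPM in saline astrocytes, so that its log2 fold change of −0.46 came with an interval of −2.18 to 1.26.

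**Figure D3:**
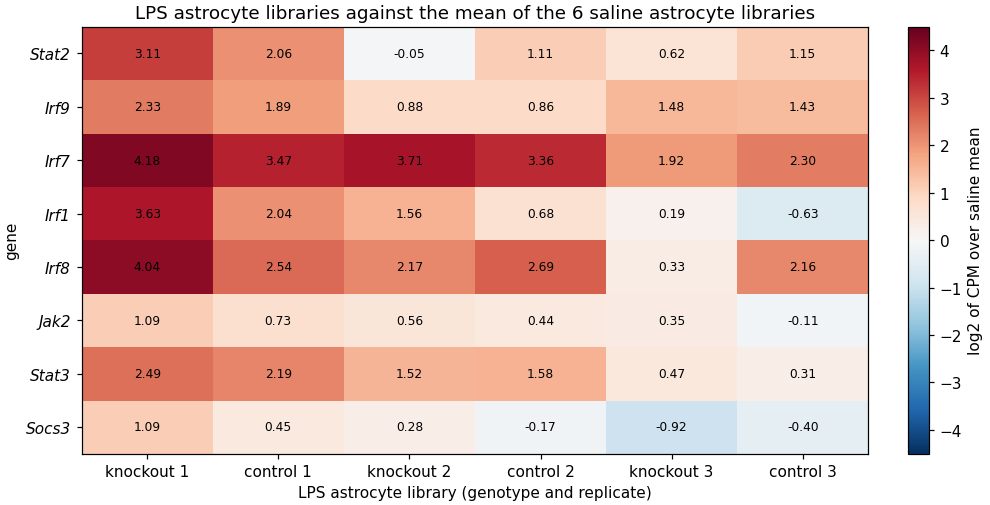
Log2 of the CPM in each of the 6 LPS astrocyte libraries over the mean of the 6 saline astrocyte libraries, for 8 genes (rows), with the value in each cell. The first library of both genotypes is high for most genes, 2.49 and 2.19 for Stat3, and the third is low, 0.47 and 0.31 for Stat3. In both genotypes the third library is labelled female and the others male.

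Without the first LPS astrocyte library of both genotypes, edgeR called 4 of the genes, namely Stat2, Stat3, Irf7 and Irf9. Irf8 was then at log2 2.21 (adjusted p 0.0812), Irf1 at 0.63 (adjusted p 0.398) and Stat2 at 0.75 (adjusted p 0.0221). When instead the third LPS library was left out in each genotype, 7 were called, all but Socs1 and Socs3. That fit held LPS libraries labelled male only. Irf7, Irf9, Stat3 and Irf8 kept their call when any 1 of the 12 astrocyte libraries was left out.

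**Figure D4:**
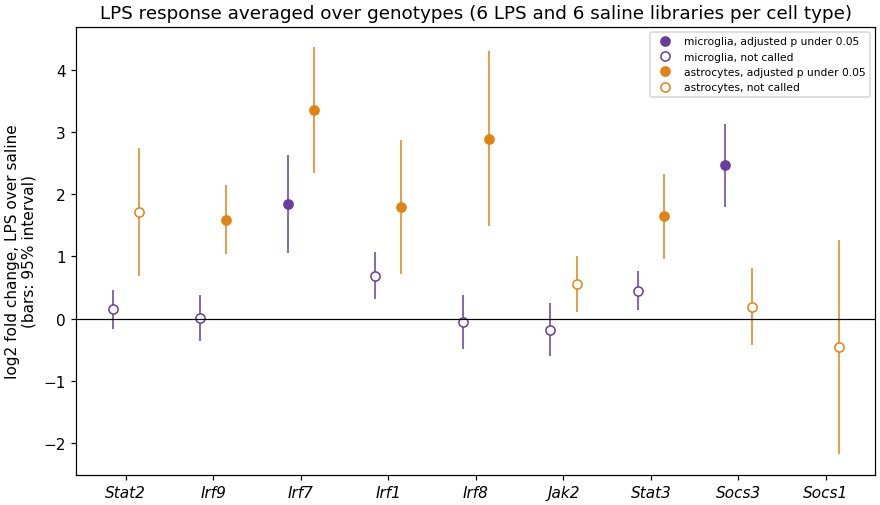
Log2 fold change of LPS over saline averaged over genotypes, with 95% intervals, for each gene in microglia and astrocytes. Filled points passed an adjusted p of 0.05. Socs3 is at 2.46 in microglia and 0.19 in astrocytes, and Irf8 at −0.05 in microglia and 2.89 in astrocytes.

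The LPS responses of the cell types were compared directly in a fit of all 24 libraries. The response differed for Socs3, Irf8 and Irf9, 3 of 9 genes, against 2.60% of 24607 genes. Socs3 responded more in microglia, by 2.30 on the log2 scale (95% interval 1.38 to 3.22, edgeR adjusted p 0.00424). Irf8 responded less in microglia than in astrocytes, with a difference of −2.92 (−4.23 to −1.61, adjusted p 0.0108), as did Irf9 with −1.54 (−2.23 to −0.85, adjusted p 0.0108). These calls held in all 24 fits that left out 1 library. Stat2 (−1.53, adjusted p 0.0754), Stat3 (−1.16, adjusted p 0.0879), Irf7 (−1.46, adjusted p 0.257), Irf1 (−1.08, adjusted p 0.406) and Jak2 (−0.71, adjusted p 0.26) were not called. Cell type went together with brain region, preparation and sequencing yield, which cannot be told apart here.

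Levels in saline differed most for Socs3 and Irf8. Irf8 averaged 29.0 CPM in saline microglia and 1.21 CPM in saline astrocytes, and Socs3 averaged 3.74 CPM in saline microglia and 64.1 CPM in saline astrocytes. In the fit of all 24 libraries, 4 of 9 genes differed, against 70.0% of all genes tested. The log2 difference, microglia minus astrocytes, was 4.78 for Irf8 (adjusted p 8.19e-09), −4.08 for Socs3 (adjusted p 1.96e-10), −2.01 for Stat3 (adjusted p 2.9e-07) and −1.37 for Socs1 (adjusted p 0.0449, edgeR). The median of all genes was 0.40, and 0.70 with RLE factors, so these values depend on the scaling. With scaling within each cell type the astrocyte level was 4.88 times that of microglia for Socs3, where scaling over all libraries gave 17.2, and for Stat3 1.14 times, where it gave 4.03. The same change took Irf1 to 0.472 times in place of 1.65, Jak2 to 0.344 in place of 1.2 and Socs1 to 0.741 in place of 2.59, so their order turned round. Irf8 was higher in microglia under every scaling, by 24 to 84.1 times.

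Set side by side per kilobase of exon, the genes ranked differently in the cell types. In saline microglia Stat2 was highest, at 10.3 CPM per kilobase in knockouts and 10.9 in controls, followed by Jak2 at 8.15 and 7.46. In saline astrocytes Socs3 was highest, at 21.1 CPM per kilobase in knockouts and 23.3 in controls, followed by Stat3 at 12.0 and 11.2. After LPS Stat3 had the highest mean in astrocytes, at 38.1 CPM per kilobase in knockouts (SD 24.9) and 34.1 in controls (SD 19.3). Stat2 followed at 31.4 (SD 36.1) and 24.2 (SD 9.7), so this lead was within the spread of the libraries. Across the 8 groups Irf7 means were ordered with the 4 LPS groups above the 4 saline groups, and the astrocytes of LPS knockouts (31.7 ± 19.7 CPM, SD, n = 3) and LPS controls (23.8 ± 9.09 CPM) led without differing beyond their spread. For Irf8 the 4 microglia groups, at 24.9 to 32.6 CPM on average, overlapped each other and lay above all astrocyte groups.

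Loss of Serpine2 did not lead to a call for any of these genes, in either cell type or injection or averaged over injections. Nor did the LPS response differ between genotypes by a call. For microglia edgeR called 0 of 8 genes in each of these 4 comparisons, 0 had an unadjusted p under 0.05 and DESeq2 called 0. For astrocytes the counts were 0 of 9 by all these measures. The background was equally low, at 0.00450% of genes called in microglia (averaged over injections) and 0.00550% in astrocytes, which is Serpine2 alone in each. Within saline or LPS alone, 0 of 22230 genes were called in microglia, Serpine2 included. Yet Serpine2 averaged 40.2 CPM in saline control and 11.9 CPM in saline knockout microglia. In LPS microglia it averaged 42.0 CPM in controls and 11.1 CPM in knockouts. These comparisons thus missed a difference of that size.

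The intervals show what could have been missed. Averaged over injections, knockout minus control in microglia was between −0.36 (Irf8, 95% interval −0.79 to 0.08) and 0.27 (Jak2, −0.16 to 0.70) on the log2 scale. Socs3 was at 0.05 (−0.59 to 0.69) and Irf7 at −0.02 (−0.77 to 0.74). In astrocytes the intervals were wider, with Irf1 at 0.82 (−0.25 to 1.88), Stat2 at 0.18 (−0.82 to 1.18) and Stat3 at 0.11 (−0.55 to 0.77), while Irf8 was at −0.63 (−1.97 to 0.72) and Socs1 at −0.56 (−2.29 to 1.16). The smallest unadjusted p was that of Irf1 in LPS astrocytes (log2 1.35, edgeR unadjusted p 0.0729, adjusted p 1). Irf1, Irf9 and Jak2 were higher in the LPS knockout than the LPS control astrocyte library of the same number in all 3 pairs. Socs1 was lower in all 3 pairs, at 0.5467, 1.136 and 0.1085 CPM in knockouts against 1.19, 1.221 and 1.219 CPM in controls. For Irf9 the pairs numbered 2 (37.14 against 36.78 CPM) and 3 (56.54 against 54.35 CPM) differed little. The share of all genes with the same direction in all 3 pairs is not given here. With the pairs as a block Irf1 stood at 1.11 (adjusted p 1). The LPS response of Irf8 was larger in knockout than in control astrocytes by 2.05 on the log2 scale, with an interval of −0.65 to 4.76. Neutrophil markers summed to between 829.3 and 1608 CPM in saline knockout microglia, against 423.4 to 551.4 CPM in saline controls, and their part in these values was not tested.

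Beyond the 9 genes, part of the induced genes of the type I interferon response rose in microglia and most did in astrocytes. In microglia 9 of 23 tested genes were called higher and none lower, where 2.19% of all genes were called higher, with a median log2 fold change of 0.96, against −0.03 for all genes. In astrocytes 20 of 23 were called higher, where 4.98% of all genes were, with a median of 3.88 against 0.01 for all genes. The nucleic acid sensor Zbp1 had a log2 fold change of 3.09 in microglia (edgeR adjusted p 3.78e-05). The antiviral gene Oasl2 stood at 2.11 in microglia (adjusted p 9.4e-05) and 6.0 in astrocytes (adjusted p 1.28e-05). Bst2, which tethers virus particles, was at 5.85 in astrocytes (adjusted p 1.18e-05). The response was called smaller in microglia than in astrocytes for 13 of 24 genes, where 2.60% of all genes were called in either direction. The share of all genes called smaller is not given here.

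Genes linked to interferon gamma and Irf1 were called higher in 7 of 16 cases in microglia (median 1.18) and 15 of 17 in astrocytes (median 4.82), with none called lower. Over all genes 2.19% were called higher in microglia (median −0.03) and 4.98% in astrocytes (median 0.01). Cxcl10, a chemokine for T cells, was at log2 4.24 in microglia (edgeR adjusted p 2.61e-05). B2m, the light chain of MHC class I, was at 1.25 in microglia (adjusted p 0.000619) and 2.53 in astrocytes (adjusted p 2.13e-06). Of the genes linked to interleukin-6 and Stat3, 9 of 18 were called higher in microglia (median 1.13) and 11 of 18 in astrocytes (median 2.63), against the same shares of all genes. The acute phase gene Saa3 was at 9.02 in microglia (adjusted p 1.61e-09). The intermediate filament gene Gfap was at 2.97 in astrocytes (adjusted p 0.000112). The immediate targets Myc, Pim1, Pim3, Mcl1, Junb, Cebpb and Cebpd were the 7 not called in astrocytes, with log2 values of 0.21 to 1.34.

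**Figure D5:**
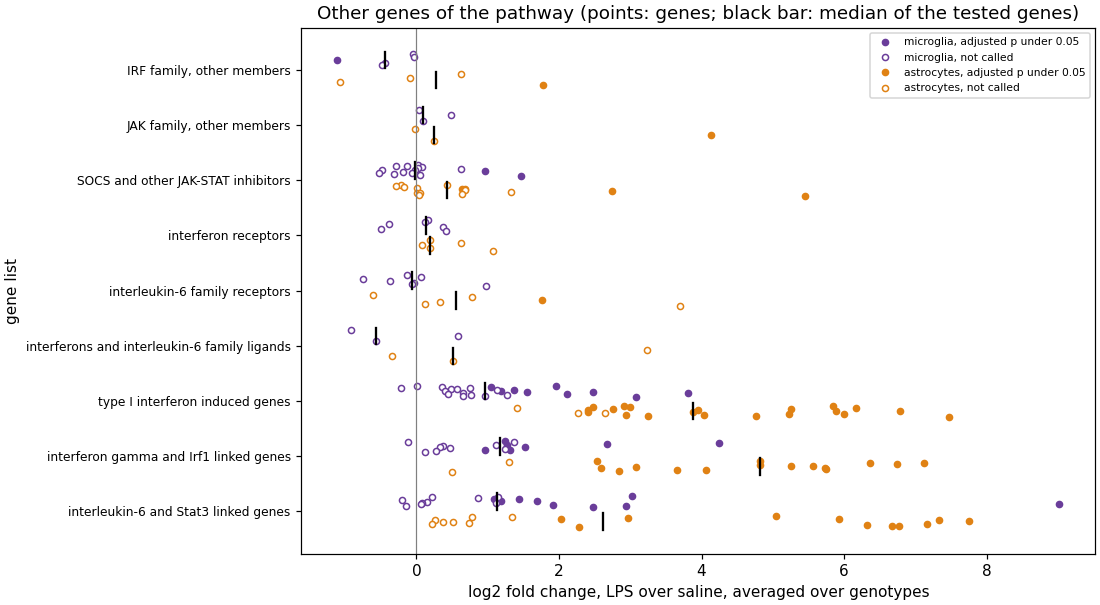
Log2 fold change of LPS over saline, averaged over genotypes, for other genes of the pathway by list (rows) and cell type. Each point is a gene, filled at an adjusted p under 0.05, and the black bar is the median of the tested genes. Type I interferon induced genes have medians of 0.96 in microglia and 3.88 in astrocytes.

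Of other members of the IRF and JAK families, 1 of 5 tested IRF genes was called in microglia, where 2.70% of all genes were called, and 1 of 4 IRF and 1 of 3 JAK genes in astrocytes, where 6.90% were. The JAK relatives tested in microglia were not called, at log2 fold changes of 0.03 (Jak1), 0.49 (Jak3) and 0.09 (Tyk2). The IRF gene called in microglia was Irf4, a factor of myeloid and lymphoid cells, which fell by 1.11 on the log2 scale (edgeR adjusted p 0.0157). That call was lost without saline control 1, saline knockout 2 or LPS control 3. In astrocytes Jak3, the kinase of lymphoid cytokine receptors, rose by 4.13 (adjusted p 0.0135) and Irf5, a factor of myeloid inflammatory responses, by 1.77 (adjusted p 0.0303). Jak3 averaged 4.51 CPM in LPS knockouts and 2.53 CPM in LPS controls, against 0.0739 CPM in saline knockouts and 0.399 CPM in saline controls. The Irf5 call was lost on leaving out any 1 of 8 libraries.

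Of 15 other inhibitors, 2 were called higher in microglia, against 2.19% of all genes, and 4 in astrocytes, against 4.98%. Usp18, which blocks the type I interferon receptor, rose by 1.47 in microglia (edgeR adjusted p 0.0038) and by 5.45 in astrocytes (adjusted p 0.000112). Ptpn6, the phosphatase SHP-1 of blood cells, rose by 0.96 in microglia (adjusted p 0.00377) and by 2.74 in astrocytes (adjusted p 0.00657). The phosphatases Ptpn1 (0.64, adjusted p 0.0374) and Ptpn11 (0.69, adjusted p 0.0417) rose in astrocytes. No interferon receptor gene was called by edgeR in either cell type, of 6 tested in microglia and 5 in astrocytes. Among interleukin-6 family receptors only Il6ra was called, in astrocytes (1.76, adjusted p 0.0477), and Ptpn1 and Il6ra lost their call without any 1 of 10 libraries. Most ligands were too low to test, 3 of 15 being tested in each cell type and none called.

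The genes that varied most like each of the 9 over 12 libraries of a cell type were named by Pearson's r of log2 CPM, as a description, since libraries share injection and quality. In microglia Socs3 was most like Csf2rb (r = 0.965) and Pirb (r = 0.954), and Irf7 most like Flna (r = 0.964) and Ace (r = 0.959). Irf1 was most like Oasl2 (r = 0.956) and Iqgap1 (r = 0.951). In astrocytes Stat3 was most like Gbp5 (r = 0.987) and Plat (r = 0.983), Stat2 most like Trafd1 (r = 0.968) and Irf9 most like Wfs1 (r = 0.968) and Ifnar2 (r = 0.964). Irf8 was most like Angpt1 (r = 0.939) and Nes (r = 0.925) in astrocytes and Phf21b (r = 0.918) in microglia.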

How the data were processed

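The authors deposited raw read counts for each Ensembl identifier, which the tables bear out: all values are whole and library totals differ. Per the submitters' processing notes, STAR 2.6.0c and HTSeq were used, and GRCm38 and GRCm39 were named without roles; strand setting and annotation release were not given in the sources used here. Per the labels' protocols, libraries were made with Ovation V2 and NEBNext Ultra kits. Stat3, Irf1 and Irf7 have exons that overlap a gene on the other strand, and Irf9 overlaps Rnf31 on the same strand, so their counts are uncertain. Coordinates of promoter stretches are RefSeq's on GRCm38.p6, and exon lengths are GENCODE's on GRCm38.

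Counts were analysed with edgeR 4.0.16 under R 4.3.3 within each cell type (12 libraries, 4 group means), after filterByExpr (count of at least 10, total of at least 15), TMM scaling and a robust quasi-likelihood fit. Contrasts were tested two-sided with Benjamini-Hochberg adjustment over all genes. Both cell types were also fitted together on 52404 shared identifiers. Intervals are 95% intervals of the fitted log2 fold change, and without molecular identifiers reads can repeat a molecule. The scripts' tests were checked on simulated data. Log2 CPM for the likeness of genes used a prior count of 2 and genes averaging at least 8 CPM.

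The plan was to name all 9 genes in each comparison. From each pathway list the called genes of smallest p, at most 3 in each direction, were to be named. Not all of these values are printed, among them those of Zbp1 and Serpina3n in astrocytes. Others named were chosen after their values were seen. A list of relatives is not reported here. The genes and lists were chosen with earlier results of these data known. Alternatives were RLE factors, DESeq2 1.42.0, no filter, a minimum count of 50, labelled sex, a replicate block, fits restricted to the groups of a comparison, the most abundant genes left out of the fit of both cell types, astrocytes without the third or first LPS library of both genotypes (the latter added after seeing the data) and each library left out. Replicate numbers are the labels' own. Same-numbered knockout and control libraries deviated together in LPS astrocytes only (correlations of deviations 0.222, 0.12 and 0.266), where the block changed no call between genotypes. Such libraries had the same labelled sex in LPS astrocytes and in microglia.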

Additional observations from a re-analysis of the deposited data

Results flagged for a closer look

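For 3 genes the LPS response differed between the cell types by a test of the difference itself. Socs3 responded more in microglia than in astrocytes, with a log2 difference of 2.30 (edgeR adjusted p 0.00424). Irf8 responded less in microglia, with a difference of −2.92 (adjusted p 0.0108), and so did Irf9, with −1.54 (adjusted p 0.0108). On leaving out 1 library the Socs3 difference ran from 2.03 to 2.58, that of Irf8 from −3.99 to −2.23 and that of Irf9 from −1.68 to −1.30.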

How the results depend on the processing

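The number of the 9 genes called kept within 1.5 times in the comparisons and alternatives not named here. LPS in control microglia (1 as reported) gave 2 without a filter, 0 in a fit restricted to its own groups and 0 to 2 on leaving out 1 library. LPS in knockout microglia (1) gave 2 with DESeq2, no filter, the replicate block or its own groups alone, and 0 to 2 on leaving out 1 library. Averaged over genotypes, microglia (2) gave 1 with labelled sex. LPS in control astrocytes (2) gave 1 with RLE factors, 4 without a filter and 0 to 4 on leaving out 1 library. LPS in knockout astrocytes (2) gave 5 with DESeq2, 6 without a filter, 4 with labelled sex, 4 with the replicate block, 1 with its own groups alone, 5 without the third and 1 without the first LPS library of both genotypes, and 0 to 5 on leaving out 1 library. The difference in LPS response between cell types (3) gave 6 without a filter and 3 to 5 on leaving out 1 library. The cause of these changes was not tested.

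Over all genes, LPS in microglia gave 600 calls, 927 with DESeq2, 1191 without a filter and 371 with labelled sex, and LPS in astrocytes gave 1255, 1917 with DESeq2, 2033 without a filter and 2232 without the third LPS libraries. The difference between cell types gave 640 calls, 1242 with DESeq2 and 1518 without a filter. No called value changed sign in any of these fits, although the order of the Socs1 levels between cell types turned round with scaling within each cell type (astrocytes 0.741 times microglia, in place of 2.59), while 229 of 3417 values under an alternative did so for genes called in neither fit. Socs1 lost its call between cell types in saline under RLE factors, DESeq2, no filter, labelled sex, the replicate block and without the most abundant genes (adjusted p 0.0557 to 0.11). Same-numbered libraries outside LPS astrocytes did not all deviate together, so the block there is only a number; with it Irf1 lost its call for LPS in astrocytes (log2 1.31, edgeR adjusted p 0.0669). Socs1 and astrocyte Irf8 rest on few reads.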
